A study of Mus musculus with 19 samples.

Results

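The genes described here build and serve the primary cilium, the antenna that most cell types raise, and the same machinery assembles sensory and motile cilia. Intraflagellar transport (IFT) moves trains of protein along the ciliary microtubules: IFT-B trains travel outward on kinesin-2 motors, and IFT-A with the dynein-2 motor brings them back. The BBSome is an adaptor for ciliary membrane proteins, small GTPases of the ARL family control membrane cargo, and the transition zone is the gate at the ciliary base. In the nose, olfactory sensory neurons hold odorant receptors in immotile cilia and multiciliated cells move mucus, whereas brush cells are known for apical microvilli.

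Members were taken by symbol from the deposited normalized table: symbols that begin with Ift, Bbs, Tctn, B9d or Nphp and a digit, together with named motor, adaptor, GTPase and centrosomal genes. This gave 47 of 26221 genes. There were 12 IFT-B genes, 5 IFT-A genes, 4 kinesin genes, 4 dynein-2 genes, 9 BBSome and chaperonin genes, 3 small GTPases, 9 transition zone genes and 1 antisense transcript, B9d1os. B9d1os held 25 reads over all libraries and did not pass the filter on low counts, so 46 members were tested.

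RNA was sequenced in bulk from nasal epithelial cells of naive mice. These ChAT(BAC)-eGFP animals carry the transgene Tg(RP23-268L19-EGFP)2Mik on a B6 background, in which a bacterial artificial chromosome with the Chat locus drives enhanced green fluorescent protein (eGFP). All groups came from this transgenic strain. The labels give neither age nor sex. The FSChi group (5 libraries) held CD45- EpCAM+ eGFP+ cells of high forward and side scatter, the FSClow group (9 libraries) held such cells of low scatter, and the EpCAM group (5 libraries) held CD45- EpCAM+ cells without eGFP. The study asked how the eGFP+ cells of either scatter differ from the eGFP-negative epithelium. Nothing in the labels ties a library to its own mouse, so the p-values below reflect variation from library to library, which may be technical. In bulk RNA, fewer cells of a type and less RNA per cell cannot be told apart.

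The libraries held between 1348428 and 7477695 counted reads. FSChi replicate 2 had the fewest reads of all and 13062 genes detected. Summed over 12 tuft or brush cell markers, the level was 8454 to 14605 CPM (counts scaled to a common library size with the TMM factors) in FSChi libraries, 8888 to 13612 CPM in FSClow libraries and 10.96 to 31.4 CPM in EpCAM libraries. Markers of other ciliated cells were highest in the EpCAM group, with 4123 to 7038 CPM over 14 olfactory sensory neuron markers and 159 to 284 CPM over 13 ciliated cell markers. FSClow libraries held 22.5 to 124 CPM of the neuronal and 35.1 to 65.0 CPM of the ciliated cell markers. The FSChi libraries were uneven: replicate 2 held 22.4 CPM of the neuronal markers and the other 4 held 1543 to 3633 CPM. Ciliated cell markers summed to 48.1 to 147 CPM in the FSChi libraries, and secretory cell markers to 512 to 13375 CPM in FSChi, 26.6 to 353 CPM in FSClow and 8631 to 25058 CPM in EpCAM libraries. Basal cell markers summed to 73.3 to 1769 CPM in FSChi, 36.3 to 131 CPM in FSClow and 1676 to 4964 CPM in EpCAM libraries, and sustentacular cell markers to 333 to 1767 CPM in FSChi, 107 to 447 CPM in FSClow and 2736 to 4079 CPM in EpCAM libraries. Ionocyte markers summed to 13.4 to 102 CPM in FSChi, 13.3 to 28.1 CPM in FSClow and 147 to 340 CPM in EpCAM libraries. Leukocyte markers summed to 10.6 to 186 CPM in FSChi, 10.9 to 45.6 CPM in FSClow and 137 to 1028 CPM in EpCAM libraries. The part of these other cells in the differences below was not tested.

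**Figure D1:**
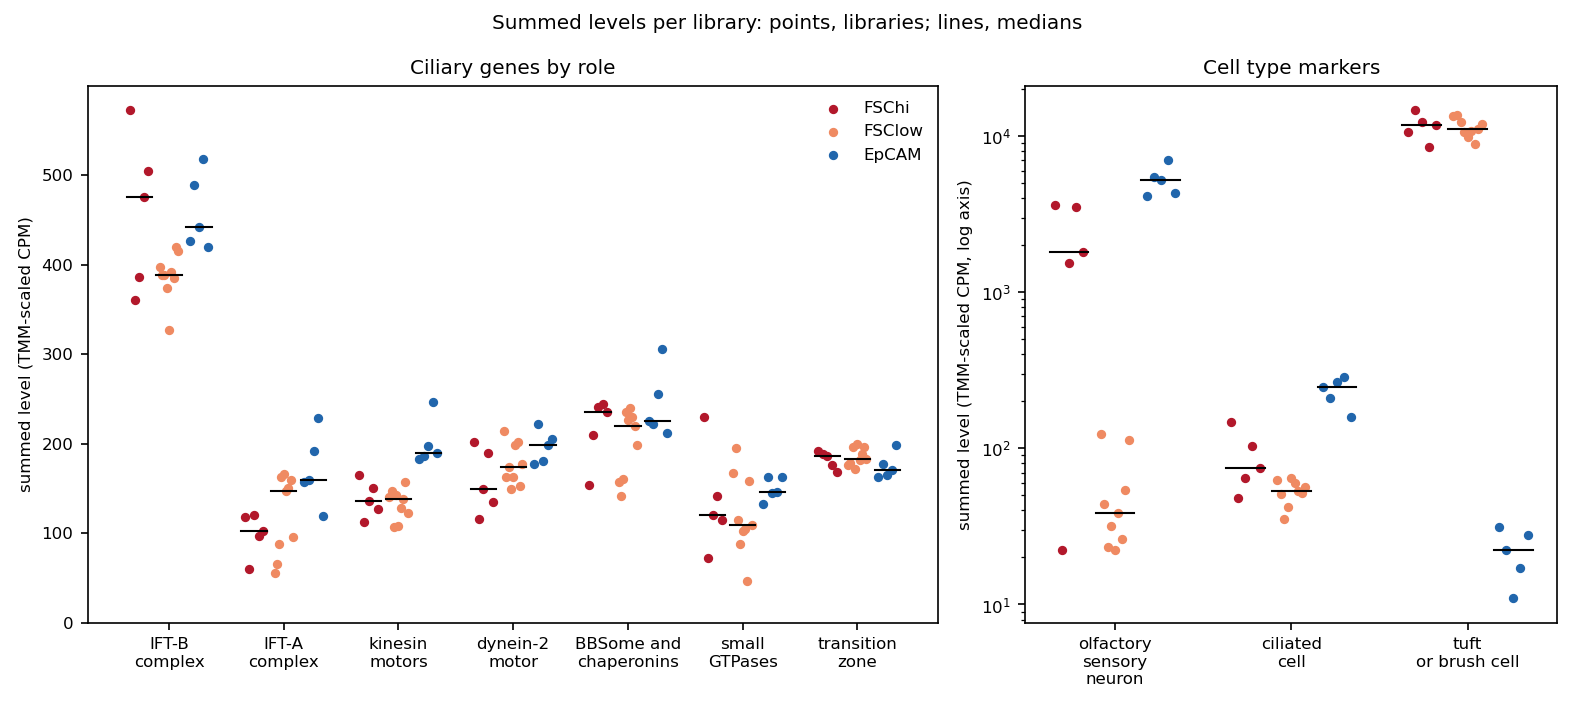
Summed level per library (TMM-scaled CPM) of the ciliary genes by role (left) and of 3 marker lists (right, log axis) in FSChi, FSClow and EpCAM libraries; points are libraries and lines are medians. Transition zone genes summed to a like level in the 3 groups, kinesin genes were lower in both eGFP+ groups, and olfactory sensory neuron markers were at 22.4 CPM in FSChi replicate 2 and at 1543 CPM or more in the other FSChi libraries.

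Each of the 46 tested ciliary genes had reads in all 3 groups. Levels of different genes were compared in TPM, a scale that accounts for gene length and library total, and 1 nearly empty FSChi file was left out of it. In FSChi libraries the IFT-B gene Ift81 had the highest TPM level of the members, at 117 ± 27.1 TPM (SD, n = 4). The kinesin-2 subunit Kif3a followed at 102 ± 10.3 TPM. In FSClow libraries Ift20, an IFT-B subunit that also works at the Golgi, came first at 94.6 ± 21.9 TPM, followed by the GTPase Arl3 at 80.5 ± 19.4 TPM (SD, n = 9). In EpCAM libraries the IFT-A gene Ift43 came first at 135 ± 22.0 TPM, followed by Arl3 at 121 ± 6.46 TPM (SD, n = 5). Each of these neighbours in order had overlapping ranges. The kinesin Kif17 was lowest of all members in both eGFP+ groups, at 0.792 ± 0.841 TPM in FSChi and 0.278 ± 0.404 TPM in FSClow libraries, against 3.94 ± 2.22 TPM in EpCAM libraries. Ift43 ranked 10 of 47 in FSChi and 17 of 47 in FSClow libraries, against 1 of 47 in EpCAM libraries.

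Summed over all members, the level was 1391 ± 189 CPM in FSChi, 1326 ± 68.6 CPM in FSClow and 1597 ± 136 CPM in EpCAM libraries (SD, n = 5, 9 and 5). Transition zone genes summed to 182 ± 9.70 CPM in FSChi, 186 ± 9.81 CPM in FSClow and 175 ± 14.5 CPM in EpCAM libraries, so the sums of these 9 genes lay within their spread. Single genes among the 9 differed, such as Tctn1, higher in FSClow than in EpCAM libraries, and Nphp4, lower there. The 18 further transition zone genes listed below summed to 269 to 307 CPM in FSChi, 269 to 327 CPM in FSClow and 339 to 415 CPM in EpCAM libraries, the EpCAM range lying apart. Kinesin genes summed to 138 ± 20.3 CPM in FSChi and 132 ± 17.1 CPM in FSClow libraries, against 201 ± 26.0 CPM in EpCAM libraries, and no library of either eGFP+ group reached the lowest EpCAM library. IFT-A genes varied within the low-scatter group: FSClow libraries ranged from 54.9 to 167 CPM, with replicates 1, 2, 3 and 9 at 54.9, 65.0, 87.9 and 95.4 CPM and the other 5 at 147 CPM or more. These sums describe the libraries and were not tested.

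**Figure D2:**
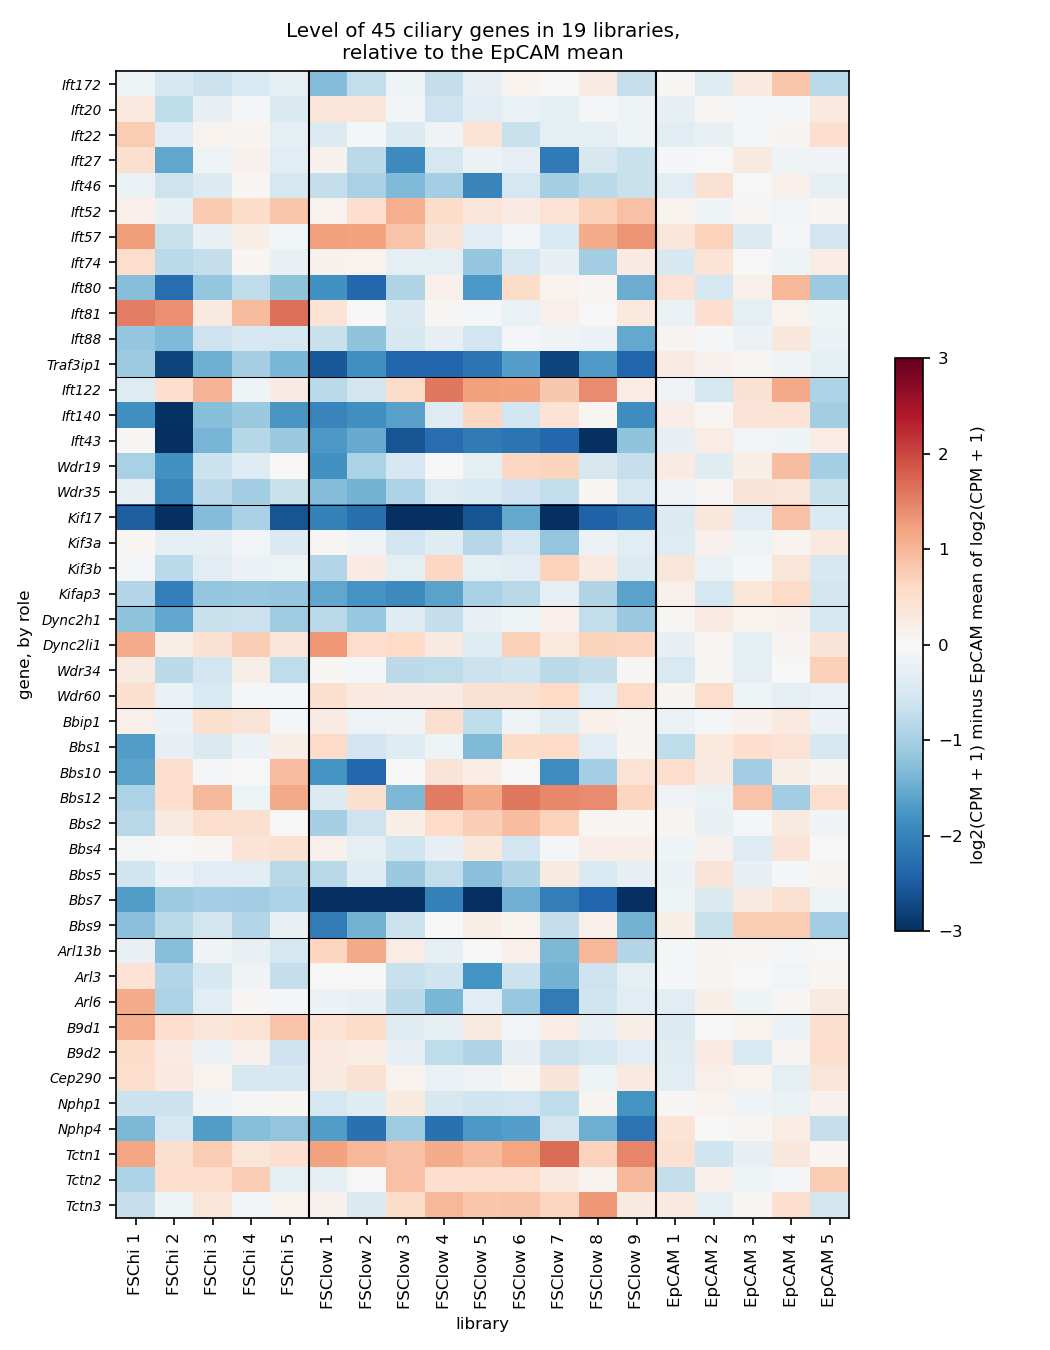
Level of 45 of the tested ciliary genes (rows, ordered by role) in the 19 libraries (columns, FSChi, FSClow, then EpCAM), as log2(CPM + 1) minus the EpCAM mean of log2(CPM + 1). Traf3ip1, Bbs7, Ift43 and Kif17 are low in nearly every eGFP+ library, Tctn1 is above the EpCAM mean in every one, and FSChi replicate 2 is the lowest FSChi library at Ift43, Traf3ip1 and Ift140.

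The largest differences of the low-scatter eGFP+ cells were lower levels of Bbs7, Traf3ip1 and Ift43, beside the sparsely read Kif17. In FSClow against EpCAM libraries, 3 of 46 members were higher (6.52%) and 9 were lower (19.6%) at an adjusted p under 0.05 by edgeR's quasi-likelihood test with Benjamini-Hochberg adjustment over 13340 genes. The background was 22.0% of all genes higher and 23.1% lower (45.1% either way), and whether the members differ from genes at large in this was not tested. The members' median log2 fold change was -0.38, against 0.05 over all tested genes. The size of the change was under 1 on the log2 scale for 80.4% of members and 63.5% of all genes. The ranges did not overlap for 7 members, 2 higher and 5 lower, where 26.3% of all genes did not overlap (10.8% higher and 15.5% lower).

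Among IFT-B genes, Traf3ip1, whose product is a peripheral subunit of the complex that binds microtubules, was lowest relative to EpCAM. It had 3.21 to 8.15 CPM in FSClow libraries (median 4.60), against 33.1, 30.9, 28.6, 25.8 and 22.6 CPM in EpCAM libraries. No FSClow library came near the lowest EpCAM library, and the log2 fold change was -2.34 ± 0.28 (SE), 5.07-fold lower (adjusted p = 2.0e-07). Ift46, a core IFT-B subunit, was 2.02-fold lower (log2 fold change -1.02 ± 0.22, adjusted p = 4.4e-04), with 9.64 to 28.4 CPM in FSClow and 33.0 to 56.8 CPM in EpCAM libraries. Ift52, another core subunit, was 1.49-fold higher (log2 fold change 0.57 ± 0.19, adjusted p = 0.018), with 50.9 to 102 CPM in FSClow and 42.9 to 50.5 CPM in EpCAM libraries. Ift88, which names the classic IFT mutant of the mouse, averaged 36.8 ± 11.6 CPM in FSClow and 52.5 ± 8.27 CPM in EpCAM libraries and was not called (log2 fold change -0.51 ± 0.23, adjusted p = 0.070). The call for Ift52 was lost without FSClow replicate 4 or 5 or EpCAM replicate 1, 3 or 4 (adjusted p = 0.053 to 0.086).

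Among the IFT-A genes 2 of 5 were lower and none was higher. Ift43 had 3.25 to 22.5 CPM in FSClow libraries (median 10.9), against 44.7, 62.2, 49.8, 48.6 and 62.2 CPM in EpCAM libraries. The ranges lay apart, and the log2 fold change was -2.16 ± 0.37 (adjusted p = 3.1e-05). Wdr35, another IFT-A subunit, was 1.63-fold lower (log2 fold change -0.71 ± 0.27, adjusted p = 0.035), a call lost without any 1 of 5 libraries (FSClow 1 or 3, EpCAM 2, 3 or 4).

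Of the motors, the kinesin-2 subunits behaved unequally. Kif17, the homodimeric kinesin-2, held 16 reads over the FSClow libraries and 217 over the EpCAM libraries. Its level was 0 to 1.81 CPM in FSClow libraries, against 5.07, 9.19, 5.39, 13.9 and 4.94 CPM in EpCAM libraries. No library of either eGFP+ group except 1 FSChi library reached the count minimum, so Kif17 was tested only through the EpCAM libraries where it was high, had to come out lower, and is described here by its levels, with no test (fitted log2 fold change -3.70). It is 1 of the 9 lower members and 1 of the 5 lower members whose ranges did not overlap. Kifap3, the adaptor subunit of heterotrimeric kinesin-2, was 2.43-fold lower (log2 fold change -1.28 ± 0.27, adjusted p = 3.5e-04), with 14.2 to 45.7 CPM in FSClow and 38.0 to 83.4 CPM in EpCAM libraries, ranges that overlapped. Its motor partners Kif3a and Kif3b were not called, with log2 fold changes of -0.44 ± 0.18 and 0.01 ± 0.25. Of the dynein-2 genes, the heavy chain Dync2h1 was lower (log2 fold change -0.54 ± 0.22, adjusted p = 0.046) and the light intermediate chain Dync2li1 was higher (log2 fold change 0.56 ± 0.22, adjusted p = 0.046). Both dynein-2 calls lay at the threshold: the Dync2h1 call was lost without any 1 of 5 libraries (FSClow 1, 3, 8 or 9, or EpCAM 2) and the Dync2li1 call without any 1 of 16.

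The BBSome subunit Bbs7 was the only 1 of 9 BBSome and chaperonin genes called. Its level was 0.495 to 13.0 CPM in FSClow libraries (median 3.77), against 33.0, 27.1, 44.8, 50.6 and 33.2 CPM in EpCAM libraries. The ranges lay apart, and Bbs7 was 7.28-fold lower (log2 fold change -2.86 ± 0.41, adjusted p = 3.6e-06). Bbs1, in the same complex, had a log2 fold change of -0.10 ± 0.38 and was not called, with 9.63 ± 4.25 CPM in FSClow and 10.3 ± 4.04 CPM in EpCAM libraries. No small GTPase was called: Arl13b, which marks the ciliary membrane, averaged 53.4 ± 28.1 CPM in FSClow and 44.4 ± 2.01 CPM in EpCAM libraries, and spread from 16.8 to 98.7 CPM among FSClow libraries.

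At the transition zone, Tctn1 and Nphp4 went opposite ways. Tctn1, a tectonic protein of the ciliary gate, had 9.40 to 19.7 CPM in FSClow libraries (median 12.9), against 7.80, 3.30, 4.46, 7.12 and 5.68 CPM in EpCAM libraries. All FSClow libraries lay above all EpCAM libraries, and the log2 fold change was 1.22 ± 0.29 (adjusted p = 1.1e-03). Nphp4, a nephronophthisis protein, had 1.70 to 7.62 CPM in FSClow libraries, against 15.8, 11.8, 12.3, 13.8 and 6.88 CPM in EpCAM libraries, and was 3.62-fold lower (log2 fold change -1.86 ± 0.37, adjusted p = 1.8e-04). Nphp4 overlaps Kcnab2 by 844 bases and Tctn1 overlaps Hvcn1 by 2803 bases; Dync2h1, Ift140, Kif3a and Arl13b also overlap other counted genes. Whether reads were counted by strand is not given in the sources used here, so reads of overlapping genes may be mixed. The other 7 transition zone genes were not called, among them Cep290 with 34.5 ± 5.96 CPM in FSClow and 31.7 ± 6.77 CPM in EpCAM libraries.

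Traf3ip1, Ift43, Bbs7, Ift46, Kifap3, Nphp4 and Tctn1 stayed called when any single library was left out. The count of lower members was less steady: it was 14 without FSClow replicate 2 and 15 without FSChi replicate 1, 3, 4 or 5, and the count of higher members was 1 without FSClow replicate 4 or EpCAM replicate 1, 3 or 4. With relative log expression scaling in place of TMM, 1 member was higher and 17 were lower; that scaling put the all-gene median at -0.14 in place of 0.05 and the share of calls that were higher at 38.2% in place of 48.7%.

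**Figure D3:**
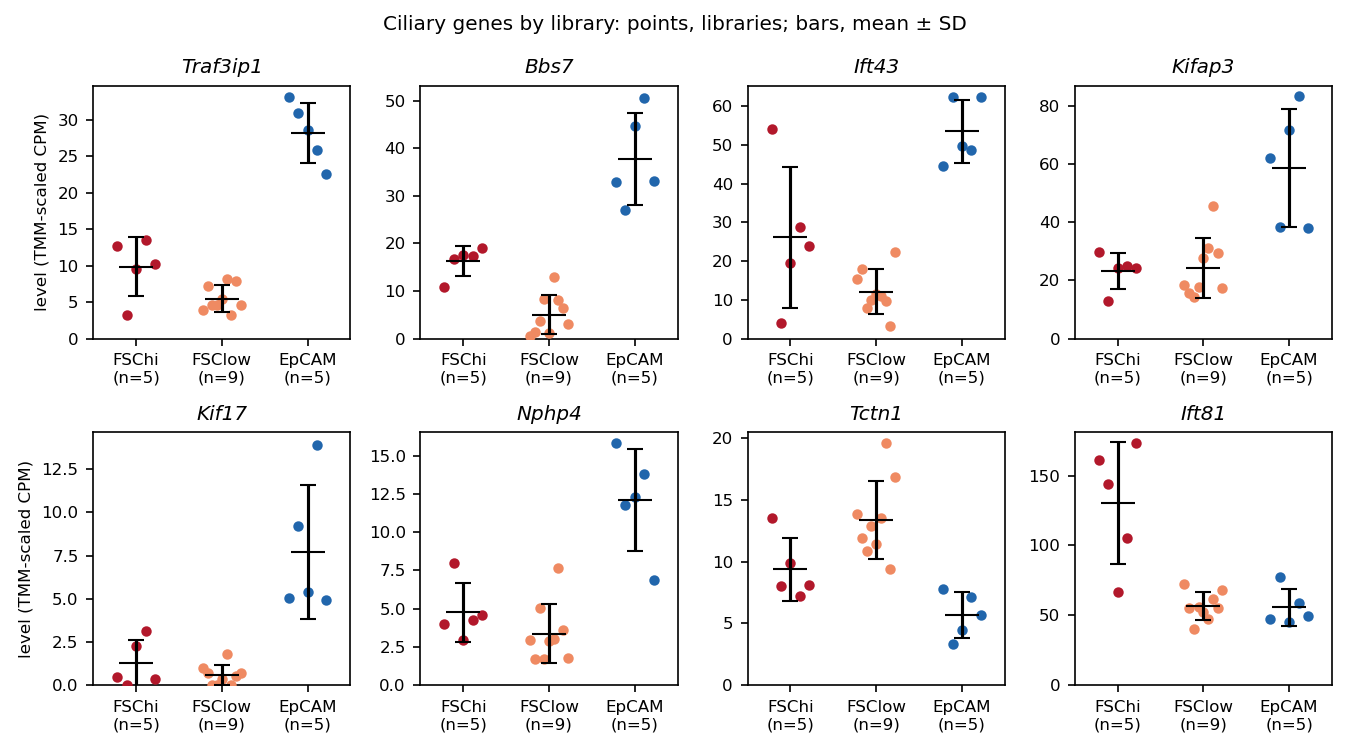
Level (TMM-scaled CPM) of 8 ciliary genes in each library of the FSChi, FSClow and EpCAM groups; points are libraries and bars are mean ± SD. Traf3ip1, Bbs7, Ift43 and Kif17 of FSClow libraries lie below every EpCAM library, Tctn1 of FSClow libraries lies above every EpCAM library, and Ift81 is high in 4 of 5 FSChi libraries.

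Ciliary genes share a regulatory motif, the X-box bound by RFX transcription factors, and 3 promoters are shown for it: Traf3ip1, the called member of smallest p in the low-scatter gate, and Bbs7 and Tctn1, the called members with the long form of the motif. Windows of 300 bases, from 250 before to 50 after the annotated start, came from RefSeq (GRCm38.p6) and were found for 41 of 47 members. The 3 windows below belong to Traf3ip1 (chr1:91494418-91494717, plus strand), Bbs7 (chr3:36613340-36613639, minus strand) and Tctn1 (chr5:122264411-122264710, minus strand), written 5′ to 3′ with the motif match in capitals.
Traf3ip1: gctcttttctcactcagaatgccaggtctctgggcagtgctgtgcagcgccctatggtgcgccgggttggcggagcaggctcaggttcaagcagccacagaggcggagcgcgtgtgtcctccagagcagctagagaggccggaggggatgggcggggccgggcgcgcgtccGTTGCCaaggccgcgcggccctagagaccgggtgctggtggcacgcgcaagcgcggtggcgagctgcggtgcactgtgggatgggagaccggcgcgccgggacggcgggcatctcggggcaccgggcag
Bbs7: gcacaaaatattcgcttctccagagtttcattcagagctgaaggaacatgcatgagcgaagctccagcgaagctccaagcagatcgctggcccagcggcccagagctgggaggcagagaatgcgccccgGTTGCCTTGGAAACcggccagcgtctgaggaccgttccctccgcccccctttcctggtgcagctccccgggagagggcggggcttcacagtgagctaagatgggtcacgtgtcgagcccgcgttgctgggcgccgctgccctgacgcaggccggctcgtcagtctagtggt
Tctn1: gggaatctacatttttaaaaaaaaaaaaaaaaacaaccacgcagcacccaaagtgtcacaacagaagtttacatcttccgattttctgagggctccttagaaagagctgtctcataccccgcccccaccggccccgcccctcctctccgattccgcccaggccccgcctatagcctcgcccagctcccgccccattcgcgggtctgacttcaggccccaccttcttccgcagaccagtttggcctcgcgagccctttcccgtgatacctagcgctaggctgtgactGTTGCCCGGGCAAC
Forms of the X-box were searched on both strands. The short form GTTGCC, or GGCAAC on the other strand, was in the windows of 21 of 41 members (51.2%), against 12.5% of all 32851 windows and 14.1% of 27025 genes. The long form, the arms GTTNCC and GGNAAC with 2 bases between them, was in those of Bbs7 and Tctn1 (4.88% of members), against 0.451% of all windows and 0.529% of genes. The form with 1 base between the same arms was in those of Ift57 and Tctn3 (4.88%), against 0.271% of all windows and 0.311% of genes. The long forms hold the short form in these 4 windows, and the windows of B9d1 and B9d1os overlap and share 1 match. Of the members with a window, 10 of 15 called in any comparison and 10 of 25 called in none held the short form. Bbs7 was lower and Tctn1 higher in FSClow libraries. In their windows the long form starts 121 bases before the start of Bbs7 and at base 37 after the start of Tctn1. A match describes the letters and was not tested as a binding site, and its relation to the calls was not tested.

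The high-scatter eGFP+ cells were higher at Ift81 and lower at Traf3ip1, Kifap3 and Dync2h1. Ift140 and Nphp4 were also called lower, but less steadily across settings. In FSChi against EpCAM libraries, 2 of 46 members were higher (4.35%) and 9 were lower (19.6%) by the same edgeR test, against a background of 13.5% of all genes higher and 12.2% lower (25.6% either way). The ranges did not overlap for 8 members, all lower, where 21.4% of all genes did not overlap (10.2% higher and 11.2% lower). Kif17, described by its levels only, is counted among these 9 and these 8. The members' median log2 fold change was -0.21, against -0.02 over all genes.

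Ift81, an IFT-B subunit that binds tubulin with its partner Ift74, had 161, 144, 66.6, 106 and 174 CPM in FSChi libraries, against 47.4, 77.6, 45.3, 58.8 and 49.8 CPM in EpCAM libraries. Replicate 3 alone of the FSChi libraries lay within the EpCAM range. The log2 fold change was 1.22 ± 0.23, 2.33-fold higher (adjusted p = 4.5e-04), and the call held without any single library. Ift74 itself was not called in any comparison. Ift81 was at 144 CPM in FSChi replicate 2, the library with the lowest level of neuronal markers. That library still held secretory and basal cell markers above every FSClow library, and the part of other cells was not tested.

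Of the lower members, Traf3ip1 had 12.6, 3.20, 9.51, 13.6 and 10.2 CPM in FSChi libraries, all below the EpCAM libraries, with a log2 fold change of -1.48 ± 0.32 (adjusted p = 1.4e-03). Kifap3 had 12.8 to 29.9 CPM in FSChi and 38.0 to 83.4 CPM in EpCAM libraries, a log2 fold change of -1.32 ± 0.32 (adjusted p = 3.4e-03). Dync2h1, the motor chain of retrograde transport, had 37.0, 28.8, 54.8, 55.2 and 41.2 CPM in FSChi libraries, against 89.7, 103, 93.5, 95.3 and 60.1 CPM in EpCAM libraries. It was 2.02-fold lower with no overlap (log2 fold change -1.02 ± 0.25, adjusted p = 4.6e-03). Ift140, a core IFT-A subunit, was 3.46-fold lower (log2 fold change -1.79 ± 0.50, adjusted p = 0.010), with 3.20 to 14.3 CPM in FSChi and 15.1 to 42.7 CPM in EpCAM libraries. The Ift140 call was lost in 6 of 14 settings other than leaving out a library. FSChi replicate 2 was the lowest FSChi library at Traf3ip1, Kifap3, Dync2h1 and Ift140, and each of these calls held without it. That library had the fewest reads of all, and its values at Traf3ip1 and Ift140, both 3.20 CPM, rest on few reads.

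Kif17 had 0 to 3.16 CPM in FSChi libraries (37 reads in all) and is again described by its levels, with no test, for the reason given above (fitted log2 fold change -2.40, and -3.02 without FSChi replicate 4). Nphp4 was lower (log2 fold change -1.41 ± 0.43, adjusted p = 0.019), as were Ift88 (-0.81 ± 0.27, adjusted p = 0.026), Ift80 (-1.49 ± 0.52, adjusted p = 0.037) and Wdr35 (-0.90 ± 0.31, adjusted p = 0.037). The Nphp4 call held without any single library but was lost in 6 of 13 other settings. Ift88 had 22.7, 20.03, 33.5, 36.4 and 35.6 CPM in FSChi libraries, against 54.8, 49.7, 46.1, 65.8 and 45.9 CPM in EpCAM libraries. The ranges of Ift88 lay apart, yet its call was lost without FSChi replicate 2 or EpCAM replicate 4. The Ift80 and Wdr35 calls were lost without any 1 of 6 libraries each, FSChi replicate 2 among them. B9d1, a B9 domain protein of the transition zone, was called higher (log2 fold change 0.66 ± 0.24, adjusted p = 0.048) and lost the call without any 1 of 15 libraries and in every other setting tried.

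No BBSome gene was called here: Bbs7 had 10.8, 16.8, 17.5, 17.3 and 19.04 CPM in FSChi libraries, all below the EpCAM libraries, with a log2 fold change of -1.22 ± 0.47 (adjusted p = 0.059). Bbs1 had a log2 fold change of -0.50 ± 0.43 and was not called. Arl13b had 38.1, 17.6, 40.9, 37.9 and 30.3 CPM in FSChi libraries, against 42.7, 47.4, 45.3, 42.6 and 44.0 CPM in EpCAM libraries. Its ranges lay apart, yet it was not called (log2 fold change -0.41 ± 0.35, adjusted p = 0.42). The count of lower members was 5 without EpCAM replicate 4. Without FSChi replicate 2, 3 members were higher and 6 lower. The count of higher members was 1 without any 1 of the 15 libraries that ended the B9d1 call. Both comparisons share the EpCAM libraries. Traf3ip1, Kifap3, Dync2h1, Nphp4 and Wdr35 were called lower in both eGFP+ groups. With Kif17, which is counted though it had to come out lower, they made up 6 of 46 members (13.0%). Of all genes 10.6% were lower in both, a share near that of the members, and genes that passed the filter like Kif17 were not taken out. In none of the 3 comparisons were 28 members called (60.9%), against 47.4% of all genes.

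**Figure D4:**
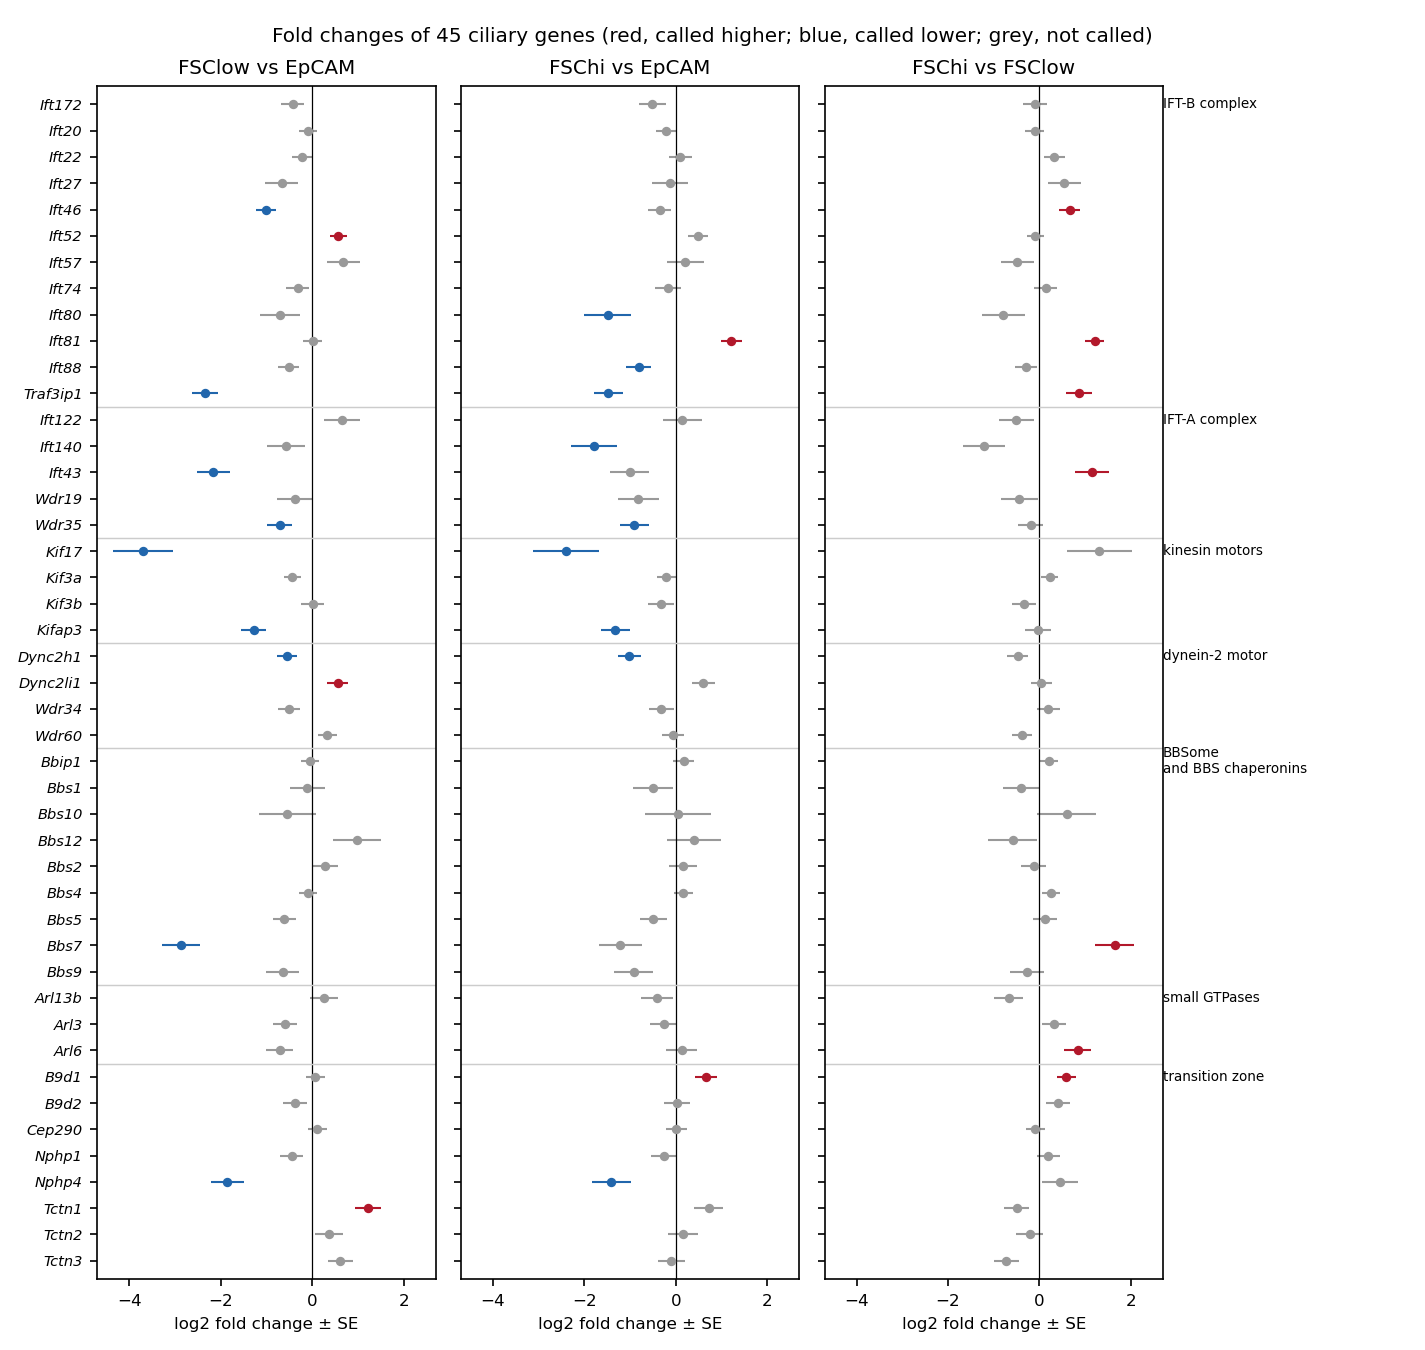
Log2 fold change ± SE of 45 of the tested ciliary genes, by role, for FSClow over EpCAM, FSChi over EpCAM and FSChi over FSClow; red points were called higher, blue points lower and grey points not called. Most members lie between -1 and 1 in every panel, with Traf3ip1, Kif17 and Bbs7 far to the left in the first and Ift81 to the right in both panels of FSChi. Kif17 is drawn with its fitted values but is not read as a test.

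Between the gates, the high-scatter cells were higher at 7 members and lower at none by the edgeR test. The 7 were 15.2% of the members, against a background of 15.5% of all genes higher and 9.30% lower (24.8% either way), so the share of higher members was near that background. For the lower direction, 4 members had an unadjusted p under 0.05, and DESeq2 called 1. No member had ranges that lay apart, where 6.52% of all genes did (3.97% higher and 2.56% lower).

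Ift81 was 2.31-fold higher in FSChi libraries (log2 fold change 1.21 ± 0.20, adjusted p = 8.3e-05), with the FSChi values above against 40.2 to 72.7 CPM in FSClow libraries (median 55.2). Replicate 3 at 66.6 CPM was the only FSChi library within the FSClow range. Bbs7 was 3.13-fold higher (log2 fold change 1.65 ± 0.42, adjusted p = 5.9e-03): 4 of 5 FSChi libraries lay above the highest FSClow library at 13.0 CPM, and replicate 1 at 10.8 CPM did not. Both calls held without any single library. Of 14 other settings, 5 ended the Bbs7 call and 2 the Ift81 call. In FSChi replicate 2, Ift81 at 144 CPM and Bbs7 at 16.8 CPM were above every FSClow library. That library held 22.4 CPM of neuronal markers and 359 CPM of sustentacular markers, at or within the FSClow levels, but 512 CPM of secretory and 161 CPM of basal cell markers, above every FSClow library.

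The other 5 calls rested on fewer libraries. Ift43 had 54.0, 4.01, 19.6, 28.8 and 24.0 CPM in FSChi libraries, against 3.25 to 22.5 CPM in FSClow libraries (log2 fold change 1.15 ± 0.37, adjusted p = 0.026), and the call was lost without FSChi replicate 1 (adjusted p = 0.17). Traf3ip1 had a log2 fold change of 0.86 ± 0.29 (adjusted p = 0.030), lost without FSChi replicate 1 or 4 (adjusted p = 0.076 and 0.095). Ift46 had a log2 fold change of 0.66 ± 0.22 (adjusted p = 0.031), lost without FSChi replicate 1 or 4 or FSClow replicate 3. In FSChi replicate 2, Ift43 at 4.01 CPM and Traf3ip1 at 3.20 CPM lay at the low end of the FSClow libraries. Both values rest on few reads. Arl6, the GTPase that recruits the BBSome to membranes, had 128, 29.6, 45.7, 59.6 and 56.1 CPM in FSChi libraries, against 12.8 to 50.9 CPM in FSClow libraries (log2 fold change 0.84 ± 0.30, adjusted p = 0.040; 0.29 without FSChi replicate 1). B9d1 was higher (log2 fold change 0.59 ± 0.21, adjusted p = 0.045), lost without any 1 of 8 libraries. Without FSChi replicate 2 the number of higher members was again 7. That number was 2 without FSChi replicate 1 and 4 without FSChi replicate 4 or FSClow replicate 3. The number of lower members was 2 without FSClow replicate 1, 2 or 9 or EpCAM replicate 5, and 1 without FSClow replicate 3 or FSChi replicate 3.

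Levels of the members also moved with transcript length from library to library. Taking the longest annotated transcript (GENCODE vM21), members ran from 838 bases in Ift43 to 14264 bases in Dync2h1. Each library's log2(CPM + 1), taken as deviation from the mean of all libraries, was ranked against length. Spearman's rho over the 46 members, which share each library's depth and preparation, was -0.51 to -0.12 in FSChi libraries, -0.44 to 0.52 in FSClow libraries and -0.49 to 0.32 in EpCAM libraries. It was negative in all 5 FSChi libraries, in FSClow replicates 1, 2 and 9 and in EpCAM replicates 2 and 5. Over 12827 tested genes the same measure ran from -0.35 to 0.27. The mean of all libraries spans the 3 groups, so differences between groups enter this measure. Taken from the mean of a library's own group, rho over the members was -0.32, 0.07, 0.22, -0.03 and 0.13 in FSChi replicates 1 to 5. On that scale it was -0.55 to 0.52 in FSClow and -0.65 to 0.50 in EpCAM libraries.

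Removing each library's length trend, a setting chosen after seeing the data, left the largest of the tested differences in place. The trend was taken from the mean of all libraries, so its removal can also take out part of a difference between groups. In FSClow against EpCAM libraries, Traf3ip1 had a log2 fold change of -2.34, Bbs7 of -2.82 and Ift43 of -2.21 on this scale, all still called. Ift81 stayed higher in FSChi libraries, by 1.23 on the log2 scale against EpCAM and by 1.18 against FSClow, and Bbs7 by 1.56 against FSClow. The calls of 3 short genes between the gates were lost: Ift43 (log2 fold change 0.77, adjusted p = 0.073), Arl6 (0.54, adjusted p = 0.12) and B9d1 (0.23, adjusted p = 0.41). FSChi against FSClow then had 4 members higher and 2 lower, Ift20 (-0.45, adjusted p = 0.0285) and Tctn3 (-0.79, adjusted p = 0.0267). Against EpCAM, the FSChi calls of Ift80 (-1.22, adjusted p = 0.063), Wdr35 (-0.74, adjusted p = 0.062) and B9d1 (0.34, adjusted p = 0.25) were lost, and Ift88 became called lower in FSClow libraries (-0.56, adjusted p = 0.022), with Wdr34, Arl3 and Arl6 lower and Tctn3 higher there. Ift20 and Arl3 became called lower in FSChi libraries. Bbs7 and Ift43 became called lower in FSChi libraries (log2 fold changes -1.26 and -1.44, adjusted p = 0.044 and 3.7e-03), and Tctn1 became called higher (0.90, adjusted p = 0.035).

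Other genes of the same complexes were read from lists outside the members, whose counts stand against the all-gene shares of 22.0% higher and 23.1% lower in FSClow against EpCAM, 13.5% and 12.2% in FSChi against EpCAM, and 15.5% and 9.30% in FSChi against FSClow libraries. Of 20 further IFT, BBSome and dynein-2 genes, 1 was higher and 8 lower in FSClow against EpCAM libraries, 0 were higher and 3 lower in FSChi against EpCAM libraries, and 4 were higher and 0 lower in FSChi against FSClow libraries. Mak, a kinase of the ciliary tip, averaged 1.97 ± 1.26 CPM in FSClow and 13.5 ± 3.09 CPM in EpCAM libraries (log2 fold change -2.77 ± 0.39, adjusted p = 2.7e-06). Kif3c, a further kinesin-2 motor subunit, averaged 3.95 ± 2.91 CPM in FSClow and 30.3 ± 13.5 CPM in EpCAM libraries (log2 fold change -2.90 ± 0.46, adjusted p = 1.3e-05). The dynein light chain Dynlt1b averaged 251 ± 98.6 CPM in FSChi and 85.2 ± 35.8 CPM in FSClow libraries (log2 fold change 1.57 ± 0.27, adjusted p = 1.2e-04).

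Of 18 further transition zone genes, 2 were higher and 6 lower in FSClow against EpCAM libraries, 0 were higher and 2 lower in FSChi against EpCAM libraries, and 2 were higher and 0 lower between the gates. Ahi1 was lower in both, with 27.7 ± 6.73 CPM in FSChi, 27.5 ± 7.18 CPM in FSClow and 58.0 ± 4.78 CPM in EpCAM libraries (log2 fold changes -1.07 and -1.09 for FSChi and FSClow, adjusted p = 1.4e-03 and 7.1e-05). Of 14 distal appendage and basal body genes, 5 were higher and 4 lower in FSClow against EpCAM libraries, 1 was higher and 3 lower in FSChi against EpCAM libraries, and 0 were higher and 3 lower between the gates. Ttbk2, the kinase that starts cilium assembly at the basal body, was higher in both, with 48.8 ± 37.7 CPM in FSChi, 61.0 ± 11.1 CPM in FSClow and 16.9 ± 6.72 CPM in EpCAM libraries (log2 fold changes 1.48 and 1.84, adjusted p = 3.1e-03 and 5.2e-05), though FSChi replicate 2 stood at 115 CPM and the other FSChi libraries at 22.9 to 38.7 CPM. Ccp110, a centriolar cap protein, was lower in both, with log2 fold changes of -1.52 for FSChi and -1.67 for FSClow, and was at 2.403 CPM in FSChi replicate 2 and 19.7 to 70.0 CPM in the other FSChi libraries.

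Genes that act through the cilium were read in the same way. Of 9 tested genes for ciliary membrane cargo, 1 was higher and 3 lower in FSClow against EpCAM libraries, 0 higher and 2 lower in FSChi against EpCAM libraries, and 2 higher and 0 lower between the gates. Adcy3, the ciliary adenylyl cyclase that is also an olfactory neuron marker, averaged 52.3 ± 32.7 CPM in FSChi, 4.67 ± 1.69 CPM in FSClow and 94.2 ± 36.4 CPM in EpCAM libraries, and stood at 5.61 CPM in FSChi replicate 2. Of 8 tested Hedgehog pathway genes, 1 was higher and 5 lower in FSClow against EpCAM libraries, 0 higher and 4 lower in FSChi against EpCAM libraries, and 2 higher and 2 lower between the gates. The receptor Ptch1 averaged 9.49 ± 1.88 CPM in FSChi, 30.5 ± 9.64 CPM in FSClow and 9.27 ± 3.87 CPM in EpCAM libraries, higher in FSClow than in EpCAM libraries (log2 fold change 1.71 ± 0.28, adjusted p = 2.2e-05). The signal transducer Smo averaged 2.02 ± 1.69 CPM in FSChi, 0.473 ± 0.685 CPM in FSClow and 8.63 ± 1.21 CPM in EpCAM libraries. Like Kif17 it passed the count minimum only through the EpCAM libraries and is given with no test. The same holds for Dynlrb2 and Anks6, which the counts of the lists above include. Smo and Gas1 were the 2 Hedgehog genes counted higher between the gates. No FSClow library reached the count minimum at either, and Gas1 passed only through FSChi and EpCAM libraries. These 2 calls are therefore counted but not read as tests.

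Of 7 tested ciliary transcription factors, 2 were higher and 3 lower in FSClow against EpCAM libraries, 1 higher and 2 lower in FSChi against EpCAM libraries, and 0 higher and 1 lower between the gates. Rfx3, an X-box factor of ciliary genes, was lower in both gates, with 27.4 ± 9.56 CPM in FSChi, 20.1 ± 5.83 CPM in FSClow and 57.2 ± 18.98 CPM in EpCAM libraries (log2 fold changes -1.05 and -1.51, adjusted p = 0.012 and 3.2e-05). Rfx1 was higher in FSClow libraries, with 18.5 ± 5.06 CPM against 7.96 ± 1.28 CPM in EpCAM libraries (log2 fold change 1.21 ± 0.27, adjusted p = 7.2e-04). Myb, which acts early in multiciliated cell formation and in other progenitors, averaged 27.5 ± 10.002 CPM in FSChi, 93.9 ± 37.3 CPM in FSClow and 3.47 ± 0.722 CPM in EpCAM libraries. Its log2 fold change was 2.95 ± 0.34 in FSChi and 4.73 ± 0.35 in FSClow against EpCAM libraries (adjusted p = 5.4e-07 and 1.2e-10).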

How the data were processed

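Nasal epithelial cells were sorted into 3 groups and their RNA sequenced in 19 libraries. Per the submitters' processing notes, the tools were featureCounts, DESeq2, RSEM 1.2.21, STAR 2.4.2a and Picard 1.1073 and the genome build was mm10, in roles not given in the sources used here. The authors deposited raw counts of reads per gene, a normalized table (a signal: counts divided by size factors, 100% of values whole within 0.01 when multiplied back), and single-library files with RSEM expected counts, rounded here, and TPM, per the file headers. The FSChi 3 file was nearly empty (6807 expected counts), FSChi 4 and 5 files matched count columns 3 and 4, and EpCAM 1 and 2 files matched each other's columns, so the count table was used and TPM only for levels and alternatives.

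Genes were filtered by filterByExpr and tested with edgeR 4.0.16 (R 4.3.3; TMM scaling, robust quasi-likelihood fit of group over 19 libraries), and called at an adjusted p under 0.05 (Benjamini-Hochberg, 13340 genes). The SE is the log2 fold change over the root of F. All 26221 rows of the normalized table, multiplied back, equalled a row of the count table. No separate test was run on the recovered counts. Alternatives used DESeq2 1.42.0, limma 3.58.1 on log2(TPM + 1) or log2(TPM + 0.1), other scalings and filters, a replicate block, and each library left out. The length trend was a natural spline with 4 degrees of freedom, entered as offsets. Rows without a gene symbol held 0.982% of counts. The full count test was checked on counts simulated from its own fitted spread. That simulation held no uneven cell content and no length trend, so it does not bear on these features of the libraries. Named were the 3 marker genes Ift88, Bbs1 and Arl13b, at least the 6 called members of smallest p in each direction, every called member with a log2 change of 2 or more, and up to 3 called genes of each list. The values of 1 member are not reported here. Members and lists were chosen with earlier results of these data known.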

Additional observations from a re-analysis of the deposited data

Results flagged for a closer look

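Within each group, a level was set apart where the gap from the highest or lowest library to its neighbour was large for the group's range (Dixon's criterion at 95%). Chance flags about 1 in 20 groups, 6.75 of the 135 groups of values here, and 5 were found. Ift22 was at 38.9 CPM in FSClow replicate 5, the highest of its group, and Wdr60 was at 18.3 CPM in FSClow replicate 8, the lowest of its group. Ift57 was at 36.0 CPM in FSChi replicate 1, the highest of its group, and Bbs7 was at 10.8 CPM there, the lowest of its group. Ift27 was at 16.9 CPM in EpCAM replicate 3, the highest of its group.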

How the results depend on the processing

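Leaving out 1 library at a time gave 1 to 3 higher and 7 to 15 lower members in FSClow against EpCAM, 1 to 3 higher and 5 to 10 lower in FSChi against EpCAM, and 2 to 7 higher and 0 to 2 lower in FSChi against FSClow. In FSClow against EpCAM, the higher members (3) were 1 with relative log expression scaling, without the filter, with DESeq2, with RSEM expected counts, with the replicate block and in the libraries whose column matched its own file, and 0 with the stricter filter and on both TPM scales. The lower members (9) were 17 with relative log expression scaling, 14 without the filter or with the stricter one, 18 with DESeq2, 15 with only the groups compared, and 5 and 3 on log2(TPM + 1) and log2(TPM + 0.1). In FSChi against EpCAM, the higher members (2) were 0 on both TPM scales and 1 under every other setting that moved them, with the replicate block among these. The lower members (9) were 2 on log2(TPM + 0.1); without the nearly empty file they were 5 with RSEM counts, 5 on log2(TPM + 1) and 4 on log2(TPM + 0.1), and they were 2 in matched libraries. In FSChi against FSClow, the higher members (7) were 0 on both TPM scales (1 without the nearly empty file), 3 with the replicate block, 4 with only the groups compared, 1 in matched libraries and 4 with the length trend removed; the lower members (0) were 1 with DESeq2 and 2 with the length trend removed. Fewer libraries and genes enter some of these fits; otherwise the cause was not tested. Signs turned only on the TPM scales that include the nearly empty file, for log2(TPM + 1) and log2(TPM + 0.1): Ift81 -0.52 and -1.18 against EpCAM and -0.64 and -1.29 against FSClow, and against FSClow Ift43 -0.52 and -1.17, Ift46 -0.55 and -1.19, Arl6 -0.68 and -1.33, and Traf3ip1 -0.41 on the second scale. For the other values followed, 791 kept direction and side of the threshold, 66 lost the call and 17 gained it. The 15 pairs of same-numbered libraries had correlations of -0.19 to 0.40, 3 of them over 0.1, and 3 of 19 libraries correlated best with their own number. Replicates 1 of FSClow and FSChi correlated best with each other (0.40). Some files did not match the column of their own number, so a check by number cannot tell whether libraries were paired. Depth limits the genes of few reads, such as Kif17, Bbs10 and Bbs12. It also limits the low values of FSChi replicate 2, the library of fewest reads, such as those of Traf3ip1, Ift43, Ift140 and Ccp110.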
